A study of Homo sapiens with 2 samples.

Results

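The genes described here are the 10 BCL2 family genes BCL2L1, MCL1, BCL2, BAX, BAK1, BBC3, PMAIP1, BCL2L11, BID and BAD, taken by name from a count table that lists 54261 genes. They were chosen by name with their counts and log2 ratios in these 2 libraries already known, so every value here is a description and none is tested. RKO, a human colorectal carcinoma cell line, was transiently transfected with a control siRNA (siNC, the control group) or with an siRNA against the splicing factor SRSF2 (siSRSF2 group), and 1 strand-specific mRNA library was sequenced from each. No time after transfection is given in the labels, and the title of the knockdown library carries a 2 that the labels do not explain. With 1 library per group, no difference below had a replicate check.

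Cells are kept alive or committed to apoptosis in large part by proteins of this family, which meet at the mitochondrial outer membrane. Anti-apoptotic members (BCL-XL from BCL2L1, MCL-1 and BCL-2) bind and hold their pro-apoptotic relatives. The effectors BAX and BAK form pores that release cytochrome c, and the BH3-only proteins (PUMA from BBC3, NOXA from PMAIP1, BIM from BCL2L11, BID and BAD) carry the death signal to both. Epithelial cells of the colon and tumors derived from them are known to depend on BCL-XL and MCL-1 in particular. BCL2L1 is also a classical case of alternative splicing, since a donor site inside its coding exon gives the short, pro-apoptotic form BCL-XS in place of BCL-XL.

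The sequences of both donors are shown because the counts used here add both forms together. In GENCODE release 44 on GRCh38, BCL2L1 (ENSG00000171552.14) runs from 31664452 to 31723989 on the minus strand of chromosome 20. The long form ends this coding exon at the downstream donor, and the short form ends it 189 bases earlier. Below, 12 bases of exon are followed by 12 bases of intron on the transcribed strand, and capitals mark the first intron bases, GT.
BCL-XL donor, chr20:31721643-31721666: aacggcggctggGTaagaaccaag
BCL-XS donor, chr20:31721832-31721855: agctttgaacagGTagtgaatgaa

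Reads over these donors were not analysed here, so a BCL2L1 value below says nothing about which form was made.

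The promoters of both members with the highest log2 ratios, BCL2L1 and BAX, are shown next, beside that of BCL2, the member with the lowest. Each is the RefSeq sequence of 250 bases before to 50 after a transcription start (GRCh38.p14). Of the 10 genes, 9 had an entry among 35116 and MCL1 had none. Of 7 motifs searched on both strands, capitals mark 6. These were the E-box CACGTG, the box known as CCAAT, the GC box GGGCGG, the TATA box searched as TATAAA, the cAMP response element in its short form TGACGT, and the ETS factor site CCGGAAGT.
BCL2L1, minus strand, chr20:31723914-31724213: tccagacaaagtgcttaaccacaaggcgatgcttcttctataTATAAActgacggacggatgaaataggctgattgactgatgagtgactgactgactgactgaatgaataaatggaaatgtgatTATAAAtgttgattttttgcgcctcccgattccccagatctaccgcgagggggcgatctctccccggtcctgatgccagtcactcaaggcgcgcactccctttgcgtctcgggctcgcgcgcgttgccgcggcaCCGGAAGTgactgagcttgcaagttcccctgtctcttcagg
BAX, plus strand, chr19:48954625-48954924: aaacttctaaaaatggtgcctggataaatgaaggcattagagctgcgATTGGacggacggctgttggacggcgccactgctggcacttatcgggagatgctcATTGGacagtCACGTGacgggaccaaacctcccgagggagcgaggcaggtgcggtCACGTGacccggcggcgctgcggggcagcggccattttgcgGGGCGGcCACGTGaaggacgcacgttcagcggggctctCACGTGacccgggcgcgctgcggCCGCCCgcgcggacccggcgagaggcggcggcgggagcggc
BCL2, minus strand, chr18:63319720-63320019: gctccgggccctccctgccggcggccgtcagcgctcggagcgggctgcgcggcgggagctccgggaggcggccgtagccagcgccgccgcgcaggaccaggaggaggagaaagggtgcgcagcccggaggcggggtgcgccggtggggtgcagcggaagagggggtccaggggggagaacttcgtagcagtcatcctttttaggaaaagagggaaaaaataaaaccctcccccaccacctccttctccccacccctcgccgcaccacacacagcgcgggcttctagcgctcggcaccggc

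The BAX promoter held 4 copies of CACGTG, whereas 7.26% of all promoter entries held at least 1 and only 5 of 35116 held 4 or more. BBC3 held 1 copy, and so did 2 of the 5 entries of BID. The upstream BCL2L1 promoter held TATAAA at 2 places, a motif present in 11.5% of entries, and 1 ETS site, present in 4.14%. The other BCL2L1 entry, at a start further into the gene, held 1 GC box, a motif found in 45.0% of entries. The BCL2 window held none of the 6. GC boxes occurred 4 times in PMAIP1 and in 2 of the 5 BID entries, 3 times in BCL2L11 and in another BID entry, and 4 or more times in 9.06% of all entries. PMAIP1 also held 1 TGACGT, and both BAD entries held 1 TGACGT and 1 GC box. CCAAT, present in 34.6% of all entries, occurred in the windows of BAX, BAD, BAK1, BBC3 and BCL2L11, and TGACGT in 7.98% of all. A match is a description of these letters only.

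The counted reads came to 19931360 in the control library and 14512802 in the siSRSF2 library. Levels are in CPM, counts relative to the library size as adjusted by the TMM method, and log2 ratios are siSRSF2 over control after adding 0.5 CPM. Their intervals are 95% Clopper-Pearson intervals, which cover counting error only. These come from the counts without the added 0.5 CPM. With few counts, a ratio can thus lie off the centre of its interval or outside it. SRSF2 itself had 1964 counts in control and 713 in siSRSF2, so that 49.9% of the control level was left in the bulk RNA. In such RNA, fewer cells with a transcript and less transcript per cell cannot be told apart. Of the epithelial markers, KRT8, KRT18 and EPCAM were above 1 CPM in both libraries and the intestinal factor CDX2 was at 10.6 and 10.9 CPM, whereas KRT19 and VIL1 had 1 count in each library and CDH1 10 and 6. KRT8 was 27.4 and 42.6 CPM, a log2 ratio of 0.62. PTPRC, PECAM1, COL1A1 and COL3A1, markers of other cell types, had at most 13 counts. CD68 was at 763 and 982 CPM, but its neighbour EIF4A1, which all cells use, was listed at 0 in both libraries, so the count of CD68 is uncertain.

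All 10 genes were detected in both libraries and all passed the filter on low values (an average of 1 CPM), as did 12620 genes in all. Their order by level, in CPM per kb of canonical transcript, was led by MCL1 at 528 in control and 436 in siSRSF2. BAX followed at 120 and 200.1, then BCL2L1 at 95.3 and 183, and BAK1 at 55.5 and 59.3. The BH3-only genes were lower, with BAD highest in control (22.2, against 15.1 in siSRSF2), BID highest in siSRSF2 (18.0, against 14.8 in control) and BCL2L11 lowest in both at 2.30 and 2.61. BCL2 stood near the bottom at 2.56 and 1.68. The 4 most abundant genes came in the same order in both libraries. Below them, the order of BAD and BID differed between the libraries, as did that of PMAIP1 and BBC3 and that of BCL2 and BCL2L11. The exact Poisson intervals of neighbours in this order overlapped for BCL2 and BCL2L11 in control and for BID and BAD in siSRSF2, and for no other pair of neighbours.

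**Figure D1:**
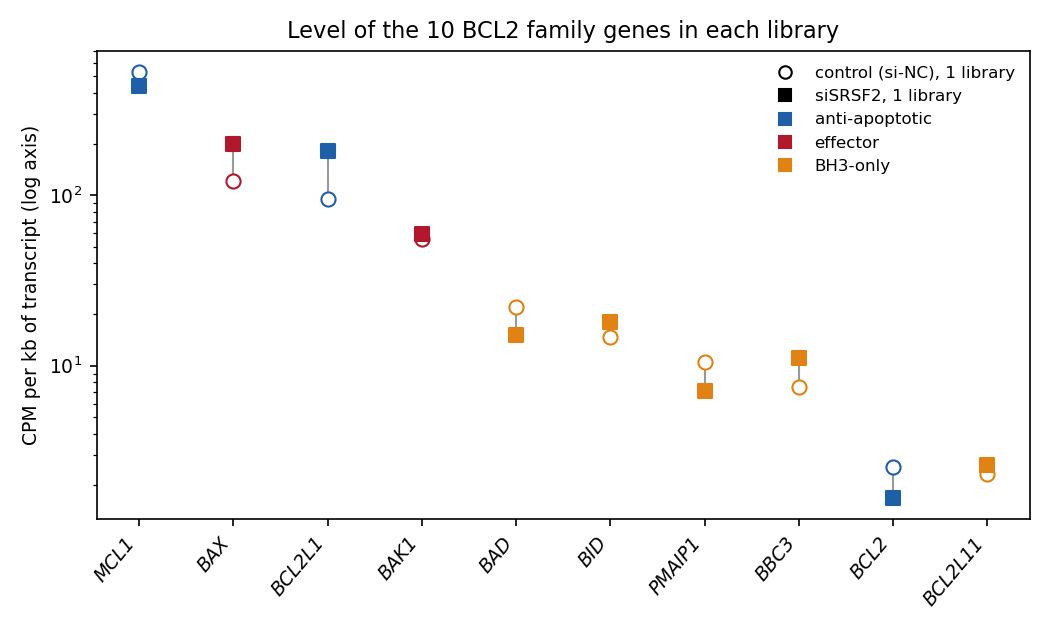
Level of each of the 10 genes in CPM per kb of canonical transcript (log axis) in the control library (open circles) and the siSRSF2 library (filled squares), coloured by role. MCL1 stands highest at 528 and 436, and BAX and BCL2L1 are higher in siSRSF2 while BCL2, PMAIP1 and BAD are lower.

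Among the anti-apoptotic genes, BCL2L1 was higher and MCL1 lower in the siSRSF2 library. BCL2L1 had 4890 counts in control and 6826 in siSRSF2, although the siSRSF2 library was the shallower. In CPM this was 245 against 470.3, or 1.92-fold more. The log2 ratio was 0.94 (interval 0.89 to 0.99). Of the 12620 genes, 138 had a higher ratio. Of the 373 genes with a mean level at least as high as that of BCL2L1, none did.

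MCL1, which encodes a short-lived protein that holds BAK and BIM in check, had 41582 counts in control and 24997 in siSRSF2. Its level was 2086 CPM in control and 1722 CPM in siSRSF2. The log2 ratio was -0.28 (-0.30 to -0.25), a modest difference with a narrow interval. Among all genes 2119 had a lower ratio, but none of the 31 genes at least as abundant as MCL1 did. BCL2, the founding member of the family, was scarce, with 351 and 168 counts. It stood at 17.6 CPM in control and 11.6 CPM in siSRSF2, a log2 ratio of -0.58 (-0.88 to -0.34).

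Both effectors were at least as high in the siSRSF2 library. BAX had 1909 counts in control and 2309 in siSRSF2, which was 95.8 against 159 CPM and 1.66-fold more. Its log2 ratio was 0.73 (0.64 to 0.82), and 312 of the 12620 genes had a higher one. BAK1, the other pore-forming gene, had 2400 and 1869 counts, or 120.4 and 129 CPM. Its log2 ratio of 0.10 (0.01 to 0.18) was small. The count ratio of BAX to BAK1, which needs no scaling between libraries, was 0.795 in control and 1.24 in siSRSF2. BAK1 has to be read with care, since 64.3% of the 31-mers of its transcript also occur elsewhere in the genome. The pseudogene BAK1P1 had 167 and 97 counts of its own. For the other 9 members this share was at most 0.561%, and no more than 0.257% of their 31-mers occurred on alternate scaffolds.

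The 5 BH3-only genes were split. BBC3 (PUMA), which encodes a protein that binds all anti-apoptotic members, had 275 counts in control and 299 in siSRSF2. Its level was 13.8 and 20.6 CPM, a log2 ratio of 0.56 (0.34 to 0.82). PMAIP1 (NOXA), whose protein is a selective partner of MCL-1, was lower, with 398 counts in control and 197 in siSRSF2. It stood at 19.97 and 13.6 CPM, a log2 ratio of -0.54 (-0.81 to -0.31). The order of the pair thus differed, with a count ratio of BBC3 to PMAIP1 of 0.691 in control and 1.52 in siSRSF2.

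BAD, which binds BCL-XL and BCL-2 when it is not phosphorylated, had 411 counts in control and 203 in siSRSF2. It was at 20.6 and 14.0 CPM, a log2 ratio of -0.54 (-0.81 to -0.31). BID, which caspase-8 cleaves to carry the signal from death receptors to mitochondria, had 644 and 569 counts. It was at 32.3 and 39.2 CPM, a log2 ratio of 0.28 (0.11 to 0.44). BCL2L11 (BIM) had 234 and 193 counts, or 11.7 and 13.3 CPM. Its log2 ratio was 0.17 with an interval from -0.10 to 0.46, so no difference in this gene was detectable at this depth.

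Of the 10 genes, 2 were at least 1.5-fold higher (BAX and BCL2L1), against 4.18% of the 12620 genes. None was at least 1.5-fold lower on the log2 scale with 0.5 CPM added, against 3.52%, so 2 of 10 were past the limit either way, against 7.69%. Among the 10492 genes with a mean of 5 CPM or more, which all 10 members reached, 1.93% were at least 1.5-fold higher and 4.18% were past the limit either way. The limit was 0.585 on the log2 scale. BAX lay beyond it at 0.73 and BBC3 fell short of it at 0.56. BCL2 at -0.58 fell just short of the lower limit with the 0.5 CPM added, whereas its plain CPM were 1.52-fold lower. No member differed by 2-fold, against 1.35% of all genes. The interval lay above 0 for 5 members, against 21.0% of all genes, and below 0 for 4, against 26.7%. Since nearly 1 gene in 2 (47.6%) had an interval that left out 0, this second count is a weak criterion. Intervals are also narrower for genes with more counts, and these shares cover all genes from 1 CPM, not genes at the members' levels. The median log2 ratio was 0.13 over the 10 members and -0.02 over all genes. By role it was -0.28 for the anti-apoptotic genes, 0.41 for the effectors and 0.17 for the BH3-only genes. Over the 7 pro-apoptotic genes it was 0.17, with an interval above 0 for 4, below 0 for 2 and across 0 for BCL2L11.

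**Figure D2:**
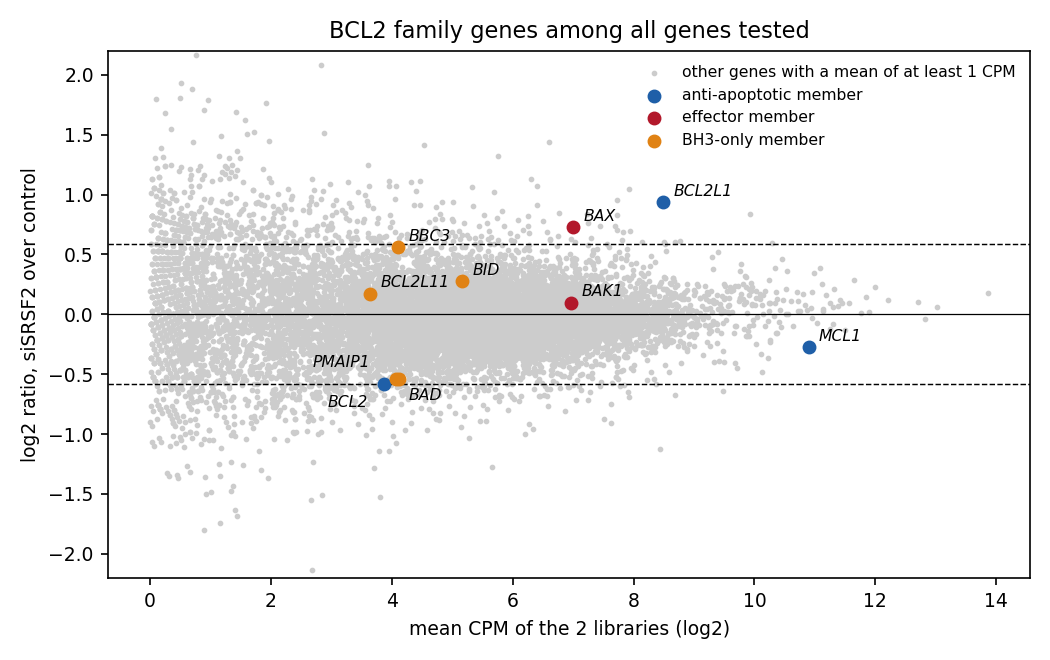
Log2 ratio of siSRSF2 over control against mean level (log2 of CPM) for the 12620 genes that passed the filter, with the 10 members coloured by role and dashed lines at 1.5-fold. None of the 373 genes at least as abundant as BCL2L1 lies above it, and none of the 31 at least as abundant as MCL1 lies below it. 10 genes with ratios beyond the plotted range are not shown.

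How the pro-apoptotic genes stood against the anti-apoptotic ones was measured within each library, which needs no scaling. All BCL2L1 counts entered as anti-apoptotic here and in the shares below, although they add both of its forms. The 7 pro-apoptotic genes had 6271 counts in control against 46823 of the 3 anti-apoptotic genes, and 5639 against 31991 in siSRSF2. They made up 11.8% of the counts of the 10 genes in control (exact binomial interval 11.5% to 12.1%) and 15.0% in siSRSF2 (14.6% to 15.4%). The ratio of pro- to anti-apoptotic counts was thus 1.32-fold higher in siSRSF2, with an exact interval of 1.27 to 1.37, or 0.40 on the log2 scale. Divided by transcript length, the ratio was 0.373 in control and 0.505 in siSRSF2.

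This direction rested on MCL1, which alone took 78.3% of the counts of the 10 genes in control and 66.4% in siSRSF2. Without MCL1 the ratio of pro- to anti-apoptotic counts was 1.197 in control and 0.806 in siSRSF2. The log2 difference was then -0.57 (-0.64 to -0.50), the opposite sign. Without BCL2L1 it was 0.58, and without BAX it was 0.16. When each gene counted equally, the mean log2 ratio of the pro-apoptotic genes exceeded that of the anti-apoptotic genes by 0.08. The 5 BH3-only genes taken alone against the anti-apoptotic genes gave 0.12 (0.02 to 0.22), and both effectors gave 0.51 (0.44 to 0.57). Divided by transcript length, an alternative added after seeing the data, the BH3-only genes gave -0.07, the opposite sign, and the effectors 0.57.

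Ratios of single pairs of partners were also higher for some and lower for others. BAX over MCL1 was higher in siSRSF2, with a log2 difference of the count ratio of 1.01 (0.92 to 1.10), and BAX over BCL2 by 1.34 (1.05 to 1.63). BAX over BCL2L1 was lower. There were 2.56 BCL2L1 counts for each BAX count in control and 2.96 in siSRSF2, a log2 difference of -0.21 (-0.31 to -0.10) for BAX over BCL2L1. BBC3 over BCL2L1 differed by -0.36 (-0.61 to -0.11). BAD and BCL2L1 differed further, by -1.50 (-1.75 to -1.25), with 11.9 BCL2L1 counts for each BAD count in control and 33.6 in siSRSF2. For NOXA and its partner, PMAIP1 over MCL1 differed by -0.28 (-0.54 to -0.03), so PMAIP1 was lower by more than MCL1 was.

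**Figure D3:**
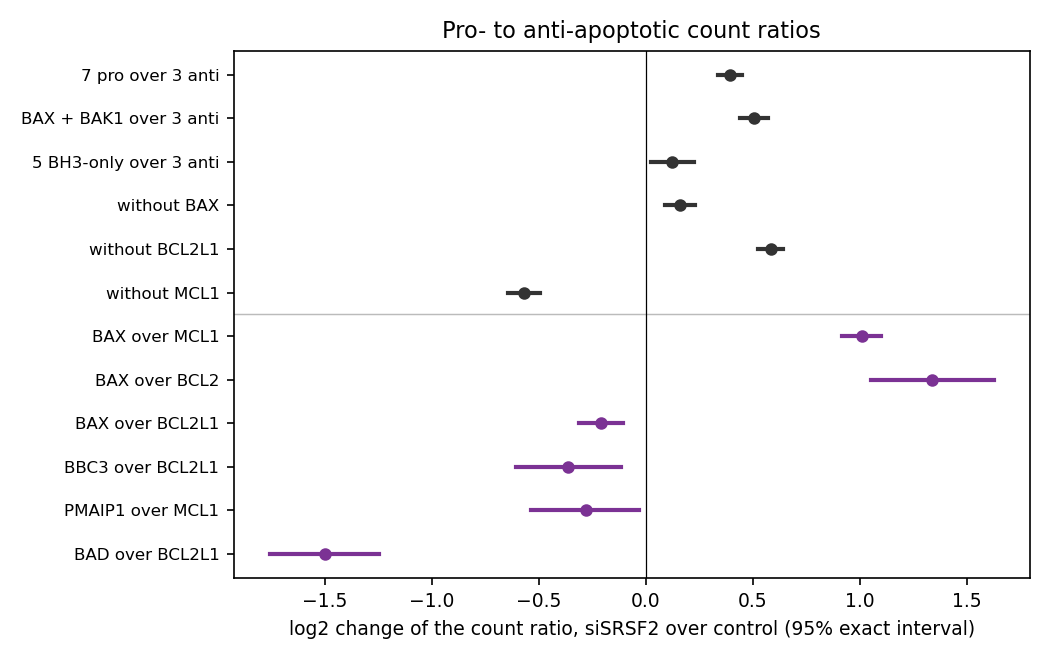
Log2 difference, siSRSF2 over control, of count ratios within a library, with 95% exact intervals that cover counting error only. The upper rows sum over all 10 genes, take the effectors or the BH3-only genes alone, or leave out BAX, BCL2L1 or MCL1. The lower rows are single pairs. The summed ratio differs by 0.40 with all 10 genes and by -0.57 without MCL1.

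Within the anti-apoptotic genes, BCL2L1 had a larger share in the siSRSF2 library. It took 10.4% of their counts in control (10.2% to 10.7%) and 21.3% in siSRSF2 (20.9% to 21.8%). Per length of transcript, its share was 15.2% and 29.5%. MCL1 took 88.8% and 78.1% of the counts, and BCL2 0.750% and 0.525%. The count ratio of BCL2L1 to MCL1 was 0.118 in control and 0.273 in siSRSF2, 2.32-fold higher (2.23 to 2.42). With BCL2L2 and BCL2A1 added to the anti-apoptotic genes, the share of BCL2L1 was 9.54% and 19.7%.

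**Figure D4:**
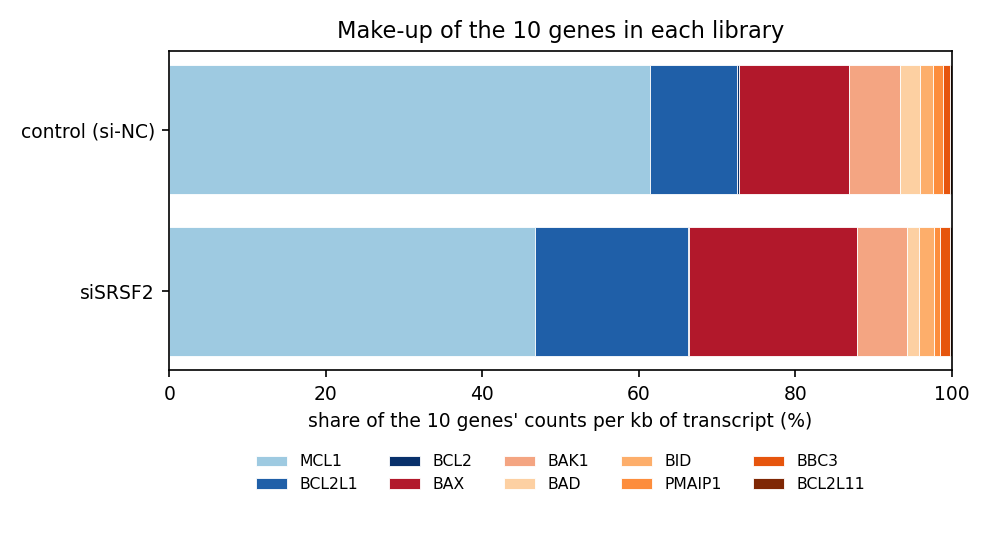
Share of each gene in the summed counts per kb of the 10 genes, 1 bar per library, with anti-apoptotic genes in shades of blue, effectors in red and salmon and BH3-only genes in orange to brown. The anti-apoptotic genes together take 72.9% in control and 66.4% in siSRSF2; BCL2L1 takes 11.1% and 19.6%, MCL1 61.5% and 46.7%, and BAX 14.0% and 21.4%.

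The other members of the family were examined as a list of 13 genes. Of these, 9 passed the filter, with a median log2 ratio of -0.10. With 0.5 CPM added, 1 was at least 1.5-fold higher and none was at least 1.5-fold lower. The one past the limit was HRK, a BH3-only gene, but it rested on 37 counts in control and 50 in siSRSF2 (log2 ratio 0.74, interval 0.25 to 1.55). BCL2L2, which encodes the anti-apoptotic BCL-w, had 1214 and 605 counts and a log2 ratio of -0.54 (-0.69 to -0.41). BCL2A1, another anti-apoptotic gene, had a log2 ratio of -0.19. BCL2L1 was thus the only anti-apoptotic gene of the 5 named here with a positive log2 ratio, with both of its forms counted together. BMF, a BH3-only gene, had 132 and 62 counts and a log2 ratio of -0.58 (-1.09 to -0.19). It fell just short of the lower limit with the 0.5 CPM added, whereas its plain CPM, 6.62 and 4.27, were more than 1.5-fold lower. BNIP3L, a mitophagy receptor, was the most abundant of this list with 12582 and 8449 counts (log2 ratio -0.12). BNIP3, BCL2L10 and BCL2L14 had no count in either library, where 3 counts would correspond to 0.151 CPM in control and 0.207 CPM in siSRSF2. EIF4A1 was also listed at 0 in both, so a 0 here may come from how reads were assigned, which was not tested.

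Downstream of the pores, 10 genes of the apoptosome and of mitochondrial release were all measured, and their median log2 ratio was 0.03. CYCS, which encodes cytochrome c, was the 1 gene at least 1.5-fold higher, with 1946 counts in control and 2197 in siSRSF2, or 97.6 and 151 CPM (log2 ratio 0.63, interval 0.54 to 0.72). CASP6, a caspase gene, had a log2 ratio of 0.45 (0.25 to 0.67). APAF1, the scaffold of the apoptosome, had a log2 ratio of 0.08 (-0.03 to 0.19).

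Of 7 inhibitor of apoptosis genes, 6 passed the filter and 1 was at least 1.5-fold lower. This was BIRC3, a target of NF-kappa B that encodes a ubiquitin ligase, with 3759 counts in control and 1666 in siSRSF2 and a log2 ratio of -0.71 (-0.80 to -0.63). Its neighbour and relative BIRC2 had -0.41 (-0.50 to -0.33), and BIRC6, the most abundant of them, -0.20. BIRC5, the mitotic member survivin, was at 0.36 (0.23 to 0.49), and XIAP, the direct caspase inhibitor, at 0.06 (-0.04 to 0.15).

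**Figure D5:**
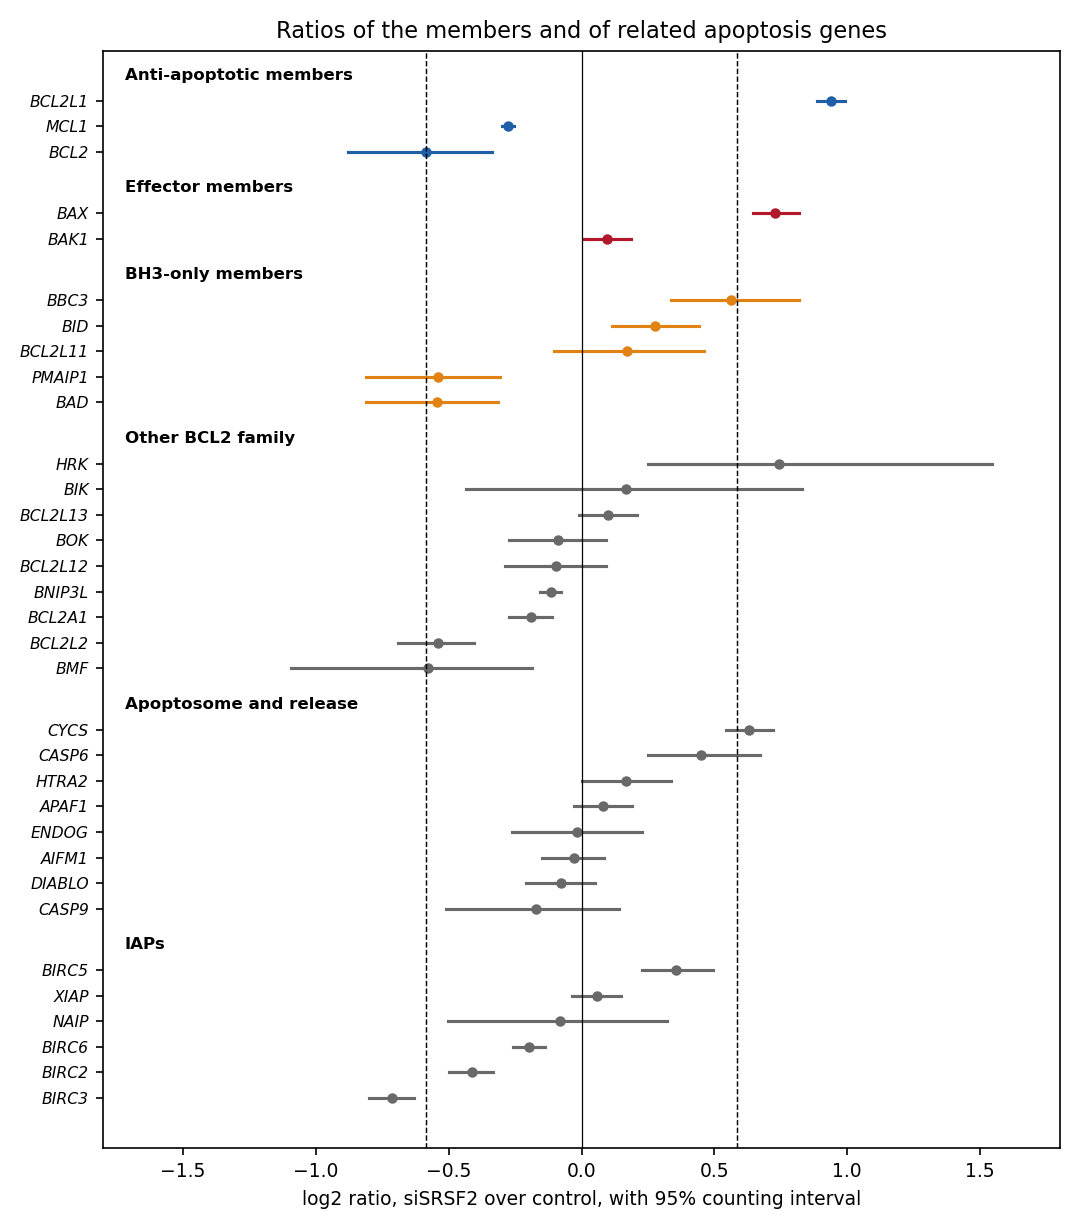
Log2 ratio of siSRSF2 over control for the members, by role, and for genes of 3 further lists, with 95% Clopper-Pearson intervals from plain counts. Dashed lines mark 1.5-fold. BCL2L1, BAX, HRK and CYCS lie beyond the upper line and BIRC3 beyond the lower one.

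In the death receptor list, 10 of 12 genes passed the filter and none was past 1.5-fold, with a median log2 ratio of 0.10. CFLAR, which encodes the caspase-8 inhibitor c-FLIP, had the largest at 0.40 (0.25 to 0.56), and TNFRSF10B, a receptor for the ligand TRAIL, was the most abundant, with 8844 and 6005 counts (log2 ratio -0.10). Of 11 genes for binding partners and turnover of the family, again none was past 1.5-fold. FBXW7, a ubiquitin ligase subunit that marks MCL-1 for degradation, had 707 counts in control and 761 in siSRSF2, a log2 ratio of 0.56 (0.41 to 0.71). HUWE1 and USP9X, a ligase and a deubiquitinase of MCL-1, were at -0.02 and 0.08. YWHAZ, a 14-3-3 gene whose protein can hold BAD in the cytosol, was the most abundant at 1567 and 1784 CPM.

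None of the 13 measured splicing factors reported to act on BCL2L1, of 14 listed, was past 1.5-fold, and their median log2 ratio was -0.02. KHDRBS1 (Sam68), reported to favor the BCL-XS donor, had the largest at 0.41 (0.35 to 0.46), and SF3B1 the lowest at -0.27 (-0.32 to -0.23). HNRNPK was the most abundant, at 743 and 755 CPM. Among 11 transcription factors known upstream of the members, none was past 1.5-fold either. FOXO3, an activator of BCL2L11, had -0.36 (-0.45 to -0.27), STAT3, an activator of BCL2L1 and MCL1, 0.37 (0.26 to 0.48), and ATF4, the most abundant of them, 0.12. Over all 78 genes of these lists, 2 of the 70 measured were at least 1.5-fold higher and 1 was lower, beside the 4.18% and 3.52% of all genes.

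Genes that share exon sequence with the members were looked at beside them, since the strand setting of the counting is not given. ABALON, an antisense RNA that covers 41.3% of the exon bases of BCL2L1, had 3 counts in control and 0 in siSRSF2. GPR137 lies opposite 23.7% of the exon bases of BAD and had 187 and 162 counts, against 411 and 203 of BAD. MIR4435-2HG lies opposite 10.8% of those of BCL2L11 and had 2143 and 1824 counts, many more than BCL2L11 itself. ADAMTSL4 and ADAMTSL4-AS1 share at most 5.27% of the exon bases of MCL1 and had 370 and 246, and 8 and 10 counts. GGNBP1, opposite 4.11% of the exon bases of BAK1, had 4 and 2 counts. Of the microRNA genes within BBC3, MIR3191 had 17 and 6 counts and MIR3190 had none. The part of these genes in the counts of the members was not tested. Transcript length and log2 ratio had a Spearman rho of -0.115 across 11225 genes, which are not independent replicates. In the 2245 genes with the shortest transcripts, which include BAX (795 bases) and BAD (929 bases), the median log2 ratio was 0.04, and in the 2246 genes next in length, with BCL2L1 (2574 bases), it was -0.03.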

How the data were processed

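The data were 2 mRNA libraries of RKO cells, 1 per group, grouped by their labels. After trimming, the authors mapped reads to GRCh38 with HISAT2 (2.0.4 in the submitters' processing notes) and used HTSeq to obtain the raw counts per gene symbol that they deposited, without normalization. The strand setting is not given in the sources used here. MARCHF5 is listed there under its older symbol. The paper's exon junction reads for BCL2L1 were not used here.

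TMM factors were taken from edgeR 4.0.16, run in R 4.3.3. To each CPM 0.5 was added before log2 ratios were taken, for 12620 genes that averaged 1 CPM or more over both libraries. Exact intervals were computed from the counts without this addition, with SciPy 1.17.1. No test across genes was run, since each group had 1 library. The calculations were tested on simulated data. All intervals, and the floor of 3 counts, describe counting error, while the spread between transfections is unknown.

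The members and gene lists were chosen with earlier results of these data known. Named were SRSF2, the members, genes that overlap them, and from each further list the genes past 1.5-fold, the most abundant gene and the one with the largest log2 ratio in size, except that some results for genes of these lists, and 1 promoter motif that was searched, are not reported here. Other genes of these lists, and the copy of BAK1 and the neighbour of CD68, were named after their values were seen. Positions, lengths (Ensembl canonical transcripts) and 31-mers came from GENCODE release 44 and GRCh38, promoters from RefSeq. The alternatives tried were scaling by upper-quartile factors, by total counts or by DESeq2 1.42.0 size factors, leaving out mitochondrial and the 20 most abundant genes, pseudocounts of 0.1 and 2 CPM, no filter, a mean of 5 CPM, a 2-fold limit, transcript length, and leaving out single members.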

Additional observations from a re-analysis of the deposited data

How the results depend on the processing

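No paired analysis was possible because there was 1 library per group, and for the same reason no replicate could be left out. Of 122 recomputed values, 108 kept their direction and stayed within the interval of the value reported, or within 1.5 times for a count. For a median over genes, this interval ran between the medians of the genes' limits and is not a counting interval of the median. Using no filter or a mean of 5 CPM could change no value, since every member passed both, so values kept there are no check. Scaling by total counts or DESeq2 size factors hardly differed from TMM, with BCL2L1 at 0.9375 and 0.9376 against 0.9373. Over all scalings and pseudocounts the log2 ratio of BCL2L1 lay between 0.93 and 0.96, that of BAX between 0.72 and 0.75 and that of BCL2 between -0.60 and -0.53.

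With upper-quartile factors MCL1, and with it the anti-apoptotic median, moved to -0.25, and BBC3 became the third gene at least 1.5-fold higher. With a pseudocount of 0.1 CPM, BCL2 made 1 gene at least 1.5-fold lower. A 2-fold limit left 0 genes higher, and counting intervals beyond 0 gave 5 higher and 4 lower. The ratio of pro- to anti-apoptotic genes, 0.40 on the log2 scale, reversed to -0.57 without MCL1. It was 0.58 without BCL2L1, 0.16 without BAX, 0.51 with the effectors alone (0.505), 0.08 (0.0819) with the mean over genes, and 0.51 without BAK1, chosen after seeing the data along with leaving out BAD (0.44). The BH3-only genes alone gave 0.12 by counts and -0.07 per length, also chosen after seeing the data. The gain in the share of BCL2L1 among anti-apoptotic genes was 10.9 percentage points by counts, 14.2 per length and 10.2 with BCL2L2 and BCL2A1. These follow from which genes enter the sums and how they are weighted.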
